A study of Mus musculus with 2 samples.

Results

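The TUFT class was made up of 304 of the 11562 cells that the authors' deposited cell table assigns to a class, 161 of 5305 in replicate 1 and 143 of 6257 in replicate 2. Its members were the barcodes called TUFT in that table, found in the raw count matrices, and their unique molecular identifiers (UMIs, 1 per captured transcript) were summed per library. The cells came from ileal crypts of wild-type Atoh1CreER-T2;R26RTom mice, in which a tamoxifen-activated Cre recombinase under Atoh1 control switches on the red fluorescent protein Tom. Tamoxifen at 1 mg/mL was injected intraperitoneally in 2 doses separated by 24 h, crypts were collected 12 h later, and live Tom+ cells were sorted for droplet 3′ RNA sequencing. Both libraries had this genotype and treatment, and no unsorted or Tom- library was analysed here. A class therefore holds only cells that carried the label when they were sorted, which includes cells whose precursors expressed Atoh1. Nothing in the labels states that the libraries are from different mice. The p-values rest on the spread of the class sums left after a library term, pooled over all classes, which may be technical. The other 11 classes are ISC, SEC-PRO, GP, GOBLET-PRE, GOBLET, PANETH-PRE, PANETH, EEC-PRE, EC, NON-EC and ENTERO-PRO. From their names these are read as stem cells (ISC), secretory progenitors (SEC-PRO), goblet, Paneth and enteroendocrine cells and their precursors (the last as EEC-PRE, EC and NON-EC) and enterocyte progenitors (ENTERO-PRO), while GP is not spelled out. By what method cells were placed in classes is unknown here. If expression was used, p-values between classes are not independent evidence of a difference. They are given here to say which differences exceeded the spread left after the library term.

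Tuft cells are rare chemosensory cells of the gut epithelium with a tall bundle of apical microvilli. They sense succinate and other luminal compounds through G protein-coupled receptors, a phospholipase C and inositol trisphosphate receptors, which release calcium and open the cation channel Trpm5. Activated tuft cells secrete interleukin 25, cysteinyl leukotrienes, prostaglandin D2 and acetylcholine, which act on innate lymphoid cells, stem cells and neurons. The POU-domain factor Pou2f3 is required for their formation.

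TUFT cells made up 3.03% of listed cells in replicate 1 (exact 95% interval 2.59 to 3.53%) and 2.29% in replicate 2 (1.93 to 2.69%). Median depth was 3403 UMIs per TUFT cell in replicate 1 (a median of 1652 genes) and 2317 in replicate 2 (1205 genes), below the medians over all listed cells of 5706 and 3503 UMIs. Summed TUFT counts were 608473 and 392983 UMIs. Intervals cover counting error only. The libraries shared 12 listed barcodes, 0 of them TUFT. Free RNA from broken cells could supply at most 8.51% and 6.21% of TUFT UMIs. The 7 goblet markers summed to 14648 and 17983 CPM (counts scaled to a common library total) in TUFT against 63626 and 48313 in free RNA. The 8 Paneth markers summed to 15948 and 12469 CPM against 80948 and 146183.

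The marker genes matched the label. Dclk1, a microtubule-associated kinase at chr3:55242364-55539068 (mouse GRCm38, plus strand, GENCODE M21), was at 989.7 and 723 CPM in the TUFT sums of replicates 1 and 2, where CPM are further scaled for composition. The next highest class, NON-EC, averaged 4.68 CPM from 4 UMIs, a log2 difference of 7.60 ± 0.32 (edgeR's quasi-likelihood test, adjusted p = 3.29e-19 as the largest Benjamini-Hochberg value over the 11 classes). Trpm5, the calcium-gated channel at chr7:143069153-143094642 (minus strand), was at 258 and 221 CPM against 2.68 CPM in ENTERO-PRO, a log2 difference of 6.55 ± 0.37 (SE). Lrmp, an endoplasmic reticulum membrane protein at chr6:145115653-145174934 (plus strand), was at 1112 and 754 CPM against 2 UMIs in GOBLET, a pooled ratio of 128 (95% counting interval 35.2 to 1055). All 3 were higher in both TUFT sums than in any sum of another class. Of 6 tuft markers (with Pou2f3, Gfi1b and Avil), 3 or more were detected in 135 of 161 TUFT cells (83.9%) and 93 of 143 (65.0%). The same held for 8 of 5144 and 8 of 6114 cells of the other classes. Replicate 1 cells were deeper, which moves with this share.

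**Figure D1:**
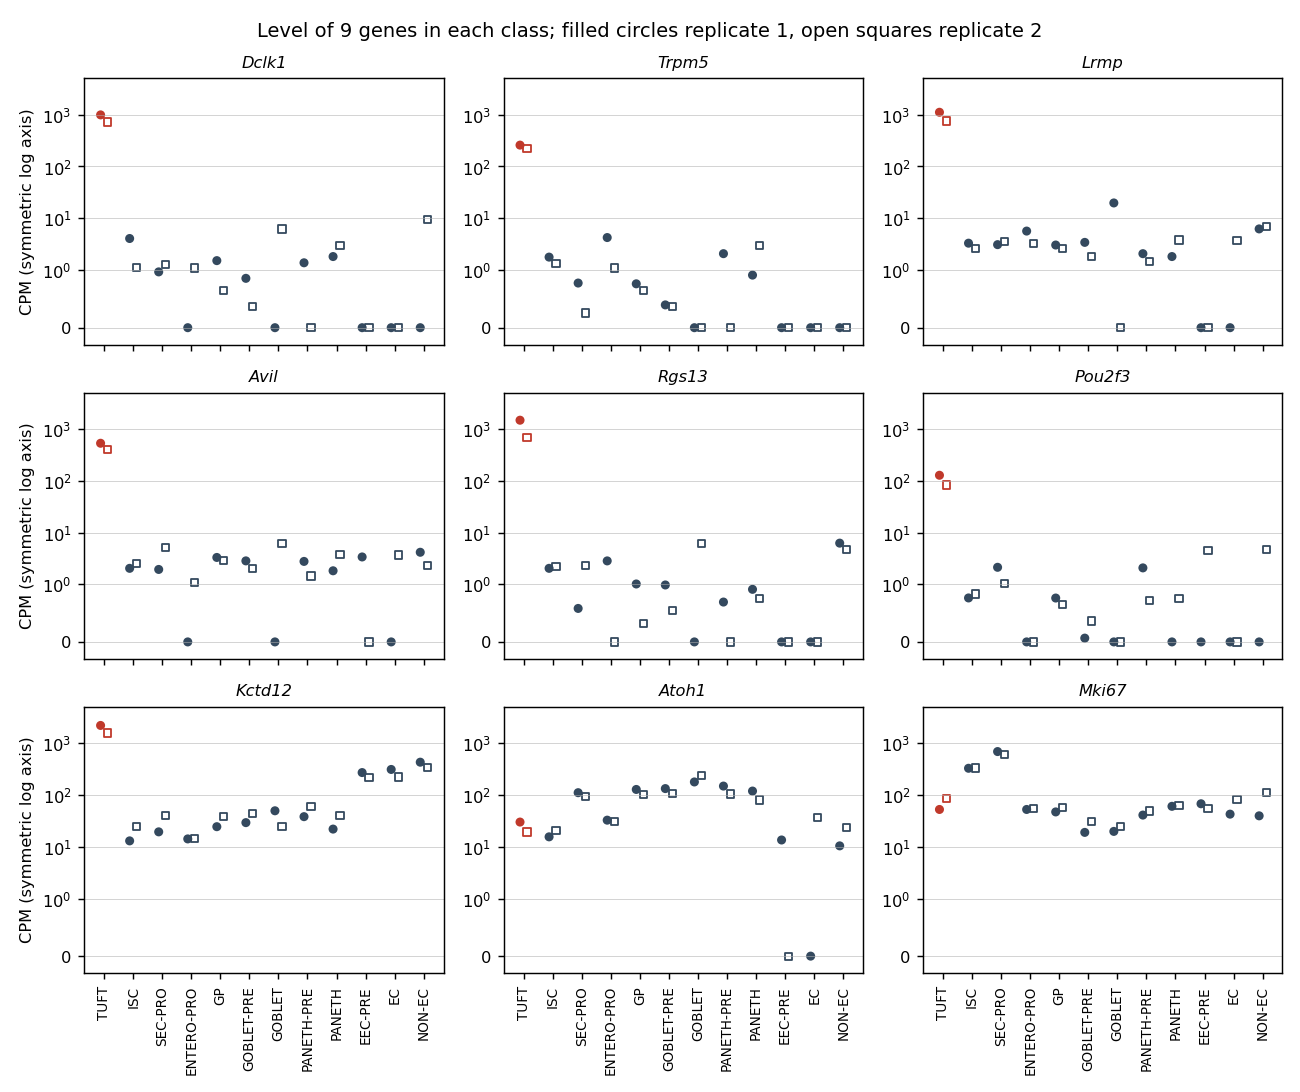
Levels of 9 genes in each class, in CPM on an axis that is linear below 1 and logarithmic above, with filled circles for replicate 1 and open squares for replicate 2. Dclk1, Trpm5 and Lrmp stand far above all other classes in both TUFT sums, while Atoh1 and Mki67 are higher in several other classes.

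Across the 10994 genes tested, 140 (1.27%) were higher in TUFT than in each of the 11 other classes, and this share is given beside the gene lists below. The lists were chosen with earlier results of these data known, and the low count filter admits genes seen in TUFT alone. Counts of members above every class therefore describe the lists and do not test them. Together the 140 genes supplied 33038 and 26506 CPM, and 107 of them were higher in replicate 1 than in replicate 2. For 79 genes the level was over 4-fold that of the next highest class, and for 56 the next highest class averaged under 10 CPM. NON-EC was next highest for 38 of the 140 genes, PANETH for 21 and EC for 20. PANETH levels were raised by the scaling for composition (factors of 0.229 and 0.256, against 1.32 and 1.33 in TUFT), so its count depends on that scaling. Leaving out either TUFT sum, with all sums of the other classes kept, moved the count of 140 by under 1.5 times.

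Of 13 tested transcription regulators linked to tuft cells (15 listed), 7 were above every other class: Pou2f3, 1810046K07Rik, Spib, Runx1, Hmx2, Hmx3 and Ehf. Pou2f3 (chr9:43123939-43210369, minus strand) was at 127 and 82.7 CPM, against 2 UMIs in NON-EC, a pooled ratio of 49.8 (95% counting interval 13.6 to 415). 1810046K07Rik, which encodes a POU2F coactivator, was at 72.4 and 75.02 CPM, against 2 UMIs in PANETH, a pooled ratio of 88.6 (95% counting interval 23.9 to 742). Both TUFT sums were above every other sum for these genes. Spib, an ETS factor known from B cells and M cells, was at 125 and 94.3 CPM, against 2 UMIs in ENTERO-PRO, a pooled ratio of 90.9 (95% counting interval 24.7 to 758). Ehf, another ETS factor, was at 590.3 and 548 CPM against 206 CPM in SEC-PRO, a log2 difference of 1.47 ± 0.11 (SE), so it was present in all classes and highest here. The homeobox genes Hmx2 and Hmx3 lie beside each other on chromosome 7 and were at 147 and 88.5 CPM and 137 and 88.5 CPM respectively, with 2 UMIs in the next highest class for Hmx2 and 1 for Hmx3. Runx1, a regulator of blood formation, was at 139 and 84.6 CPM against 14.2 CPM in GOBLET (adjusted p = 0.00215 as the largest over the 11 classes). DESeq2's Wald test lost the calls of Spib, Hmx2 and Hmx3 (adjusted p of 0.388, 0.307 and 0.119), for which it estimated dispersions of 13.2, 12.1 and 5.20 against trend values of 0.0424, 0.0403 and 0.0416. Gfi1b, a zinc finger repressor, had 10 and 5 UMIs in TUFT and 2 UMIs in all other classes, and did not pass against every class (adjusted p = 0.196).

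The other members did not pass against every class. Sox9, a crypt transcription factor, was at 351 and 227 CPM in TUFT and 268 and 274 CPM in PANETH-PRE. Sox4, which promotes secretory differentiation, was at 495 and 541 CPM, below EEC-PRE at 1766 and 1521 CPM (-1.68 ± 0.13 on the log2 scale). Ascl2, the stem cell factor, was at 32.4 and 30.8 CPM in TUFT and 34.6 and 20.8 CPM in ISC, and these ranges overlapped.

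POU2F factors bind the octamer ATGCAAAT. The octamer, searched on both strands, was found in 8 of 147 RefSeq promoters (5.44%) of the genes above every class, of which 110 of 140 genes were matched. It was in 140 of 11043 promoters (1.27%) of the genes tested and in 570 of 32851 (1.74%) of all promoters of the same 300 bases, from 250 before the start site. Windows of 3 of these promoters are printed from RefSeq on GRCm38.p6, since these genes belong to the groups described here (a coactivator, prostaglandin synthesis and the most abundant gene of the 140), with the octamer or its reverse complement in capitals. They are 5′ to 3′ on the strand of the gene.
1810046K07Rik: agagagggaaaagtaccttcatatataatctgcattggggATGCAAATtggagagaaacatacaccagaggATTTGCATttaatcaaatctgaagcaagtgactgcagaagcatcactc
Hpgds: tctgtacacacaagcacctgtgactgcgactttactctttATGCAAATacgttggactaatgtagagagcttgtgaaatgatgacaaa
Kctd12: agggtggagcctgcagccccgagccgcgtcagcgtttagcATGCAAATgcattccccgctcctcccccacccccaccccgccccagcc
The 1810046K07Rik window lies at chr9:51328926-51329044, minus strand, and its octamers lie 86 and 55 bases before the RefSeq start site. The Hpgds window (chr6:65144857-65144944, minus strand) has 1 octamer 174 bases before that start, and the Kctd12 window (chr14:102982750-102982837, minus strand) 1 octamer at 160 bases. The RefSeq start is the GENCODE M21 gene start for Kctd12 and is 1 base from it for 1810046K07Rik. For Hpgds it lies 178 bases inside the GENCODE gene, so the octamer begins 4 bases after the GENCODE start. Among the promoters with an octamer that are not printed, the RefSeq start lies 94014 bases inside the GENCODE gene for Stox2. For Ly6g6d it lies 3174 bases before the GENCODE gene start. A match describes these letters and does not show binding.

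Genes of the taste-like signalling chain were high from the G protein to the channel. Of 14 tested chemosensory genes (25 listed), 8 were above every other class: Gnat3, Gnai2, Gng13, Plcb2, Plcg2, Itpr2, Trpm5 and Rgs13. Gng13, the gamma subunit that pairs with gustducin, was at 367 and 502 CPM against 4.25 CPM in PANETH, a log2 difference of 6.59 ± 0.26 (SE). Plcb2, the phospholipase of the taste pathway, was at 255 and 169 CPM against 5.85 CPM in NON-EC, a log2 difference of 5.27 ± 0.40 (SE), and Itpr2, the calcium release channel, was at 357 and 364 CPM against 33.6 CPM in PANETH, a log2 difference of 3.43 ± 0.18 (SE). For each of these genes both TUFT sums were above every other sum. Plcg2, a phospholipase C known from immune receptor signalling, was at 218 and 183 CPM against 7.67 CPM in NON-EC, a log2 difference of 4.70 ± 0.37 (SE). Rgs13, a regulator that shortens G protein signalling, was at 1470.2 and 679 CPM against 5.46 CPM in NON-EC, a log2 difference of 7.61 ± 0.30 (SE), and its level in replicate 1 was well above that in replicate 2.

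Gnat3, the alpha subunit gustducin, was at 38.7 and 25.01 CPM against 1 UMI in ENTERO-PRO, a pooled ratio of 53.7 (95% counting interval 9.15 to 2168). DESeq2's Wald test lost the call of Gnat3 (adjusted p = 0.545, at a dispersion of 17.1 against a trend of 0.119). Gnai2, an inhibitory alpha subunit, had a smaller difference, 532 and 385 CPM against 288 CPM in EC, a log2 difference of 0.66 ± 0.18 (SE). Gnai2 lost its call without TUFT replicate 1 (0.36 ± 0.20, adjusted p = 0.296 in edgeR). Sucnr1, the succinate receptor, had 10 and 5 UMIs in TUFT and 1 UMI in the other classes, and was not called against every class (adjusted p = 0.204). Ffar3, a short-chain fatty acid receptor, was at 41.2 and 32.7 CPM against 14.04 CPM in NON-EC (adjusted p = 0.0667). The taste receptor genes Tas1r1, Tas1r2, Tas2r108, Tas2r126, Tas2r138 and Tas2r143 had 0 UMIs in 161 and 143 TUFT cells, which allows shares of cells with a UMI of up to 1.86% and 2.10% (3 cells of the total) and sets no limit on the cells that express them. The sweet and umami subunit gene Tas1r3 had 5 and 2 UMIs, and 20 in the other classes together. Gnb1, Itpr3, Rgs2 and Ric8a, which act in the same pathway elsewhere, were not above every class.

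Of 13 listed eicosanoid synthesis genes 7 passed the filter on low counts, and 6 of these were above every class (Pla2g4a, Ptgs1, Hpgds, Alox5, Alox5ap and Ltc4s). The other 6 (Ptgs2, Ptges, Ptgds, Tbxas1, Alox12 and Alox15) had at most 1 UMI in a TUFT sum. The genes above every class run from phospholipid to product. Pla2g4a, which releases arachidonic acid, was at 245 and 129 CPM against 32.2 CPM in ISC, a log2 difference of 2.61 ± 0.18 (SE). Ptgs1, cyclooxygenase 1, was at 107 and 98.1 CPM against 2 UMIs in PANETH, a pooled ratio of 125 (95% counting interval 34.0 to 1044). Hpgds, the prostaglandin D2 synthase, was at 235 and 231 CPM against 10.8 CPM in NON-EC, a log2 difference of 4.42 ± 0.44 (SE). These TUFT sums lay above every other sum. On the leukotriene branch, Alox5, 5-lipoxygenase, was at 72.4 and 61.6 CPM against 1 UMI in GOBLET, a pooled ratio of 17.9 (95% counting interval 3.13 to 715), and its activator gene Alox5ap was at 389 and 242 CPM against 2.89 CPM in PANETH, a log2 difference of 6.71 ± 0.30 (SE). Ltc4s, leukotriene C4 synthase, was at 286 and 206 CPM against 3 UMIs in NON-EC, a pooled ratio of 77.0 (95% counting interval 26.1 to 375). Hpgd, which breaks prostaglandins down, was the exception, at 24.96 and 32.7 CPM in TUFT against 307 CPM in PANETH. The inducible cyclooxygenase gene Ptgs2 had 0 and 1 UMI.

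Among 5 tested genes of acetylcholine signalling, Chat, choline acetyltransferase, was above every class at 23.7 and 28.9 CPM, against 3 UMIs in ISC, a pooled ratio of 116 (95% counting interval 36.6 to 592). Chat was above every class neither without TUFT replicate 1 nor without replicate 2 nor in thinned cells, and DESeq2's Wald test lost it against ISC (adjusted p = 0.280, dispersion 9.18 against a trend of 0.144). Of 9 tested cytokine and receptor genes, Il13ra1, a subunit of the interleukin 4 and 13 receptor, was above every class at 348 and 237 CPM against 50.1 CPM in GOBLET, a log2 difference of 2.69 ± 0.34 (SE). Il4ra, its partner, was at 34.9 and 26.9 CPM and did not pass against every class (adjusted p = 0.925). Il17rb, the interleukin 25 receptor, was at 13.7 and 34.6 CPM with adjusted p = 0.142. Il25, which tuft cells release, had 4 and 2 UMIs in TUFT and 0 in all other classes, below the minimum for testing, and the epithelial cytokine gene Tslp had 3 and 0 UMIs, and 20 in the other classes.

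Genes best known from blood cells were the longest list described so far (27 listed), with 18 of 24 tested members above every class. Fyb, an adaptor of T cell signalling, was at 872 and 558 CPM against 6.89 CPM in NON-EC, a log2 difference of 6.76 ± 0.30 (SE). Ptpn6, the phosphatase SHP-1, was at 199.7 and 158 CPM against 19.5 CPM in EC, a log2 difference of 3.26 ± 0.40 (SE), with both sums apart from every other class. The phosphoinositide 3-kinase genes Pik3cg and Pik3r5 were at 193 and 135 CPM and 159.7 and 90.4 CPM, each with 1 UMI in EC, the next highest class. Inpp5d, the phosphatase SHIP1, was at 84.9 and 46.2 CPM against 1 UMI in NON-EC, a pooled ratio of 63.2 (95% counting interval 11.1 to 2525), and Vav1, an exchange factor for Rac, was at 173 and 140.4 CPM against 2 UMIs in GOBLET, a pooled ratio of 21.1 (95% counting interval 5.76 to 175). The SH2-domain genes Sh2d6 and Sh2d7 were at 353 and 254 CPM and 169.7 and 133 CPM, and the surface protein genes Ly6g6f and Siglecf at 151 and 171 CPM and 38.7 and 38.5 CPM. These are surface receptors and adaptors. The Tec kinase Bmx was at 119.8 and 113 CPM, and Csk, an inhibitor of Src kinases, at 129 and 154 CPM against 72.2 CPM in EC, a log2 difference of 1.02 ± 0.27 (SE). Without the library term Csk was not called (adjusted p = 0.127).

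Ptprc, which encodes CD45, was at 27.5 and 21.2 CPM against 1 UMI in NON-EC, a pooled ratio of 22.7 (95% counting interval 3.80 to 923). Without TUFT replicate 1 the edgeR adjusted p was 0.164 for Ptprc, 0.05001 for Cd300lf (a lipid receptor) and 0.0655 for Ly6g6d, so these calls were lost. Cd24a was not above every class, at 1506 and 1109.9 CPM against 2086 CPM in PANETH, nor were Lyn, Fyn, Lcp1, Cd37 and Syk. Cd24a had 1784 UMIs in TUFT and 5057 in PANETH, whose sums held 4782527 and 5155992 UMIs. Its order between these classes rests on the scaling for composition. Defining markers of immune cells were at or near 0 in TUFT. All 14 T cell and innate lymphoid markers had 0 UMIs in both TUFT sums, as did all 10 markers of stroma, endothelium and blood. B cell markers had 3 and 5 UMIs in all, and myeloid and mast cell markers 5 and 3 UMIs.

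**Figure D2:**
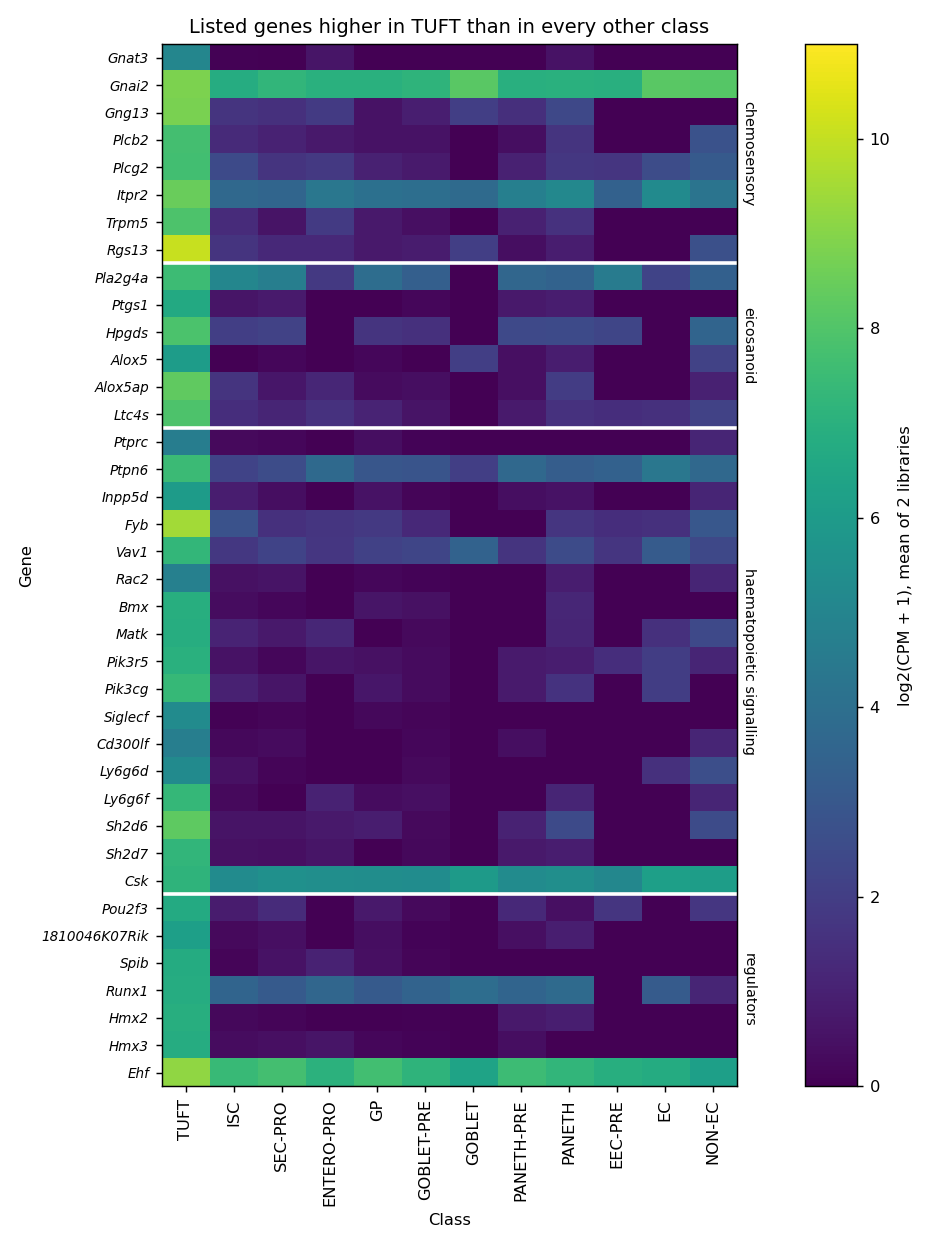
Mean log2(CPM + 1) over both libraries of listed genes that were above every other class, with a class in each column and a gene in each line. The TUFT column is filled for all genes drawn, and genes such as Gnai2 and Ehf also have signal in the other classes.

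The cytoskeleton list separated by gene. Avil, the tuft villin family member advillin, was at 528 and 402 CPM against 1 UMI in GOBLET, a pooled ratio of 126 (95% counting interval 22.5 to 4972), and Tuba1a, a tubulin, at 291 and 231 CPM against 164 CPM in EC, a log2 difference of 0.68 ± 0.21 (SE). They were among the 3 of 20 tested members above every class (5 without the TUFT cells of highest UMI totals). Tuba1a lost its call without TUFT replicate 1 (adjusted p = 0.0861), without replicate 2 (0.0624), in thinned cells (0.0817) and without the library term (0.0679). Espn, an actin bundler of microvilli, was at 409 and 442 CPM against 177 CPM in GOBLET (adjusted p = 0.0724). Krt18, a keratin of simple epithelia, was at 2676 and 2549 CPM in TUFT and 2723 CPM in GOBLET, and the difference was not called (adjusted p = 0.7496). The keratin genes Krt20 and Krt19 were at 32.4 and 21.2 CPM and 219.7 and 321 CPM in TUFT, against 1772 CPM and 2653 CPM in GOBLET.

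Tuft cells are often divided into tuft-1 cells, with neuronal genes, and tuft-2 cells, with immune genes. Of 5 tested tuft-1 genes, 2 were above every class: Nrep, linked to nerve regeneration, was at 263 and 292 CPM against 58.6 CPM in EC, a log2 difference of 2.38 ± 0.29 (SE), and Gnat3 is given above (1 without TUFT replicate 1, 3 without replicate 2). Of 5 tested tuft-2 genes, 4 were above every class (Ptprc, Rac2, Siglecf and Cd300lf), but 2 without TUFT replicate 1 and 1 in thinned cells. Rac2, a GTPase of blood cells, was at 17.5 and 36.5 CPM, against 1 UMI in NON-EC, a pooled ratio of 22.7 (95% counting interval 3.80 to 923). In cells thinned to 2000 UMIs, 52.3% and 52.9% of TUFT cells had a UMI of any tuft-1 gene and 20.0% and 20.7% of any tuft-2 gene (unthinned, 65.2% and 59.4%, and 31.7% and 25.9%). 16 of 130 cells and 10 of 87 had both. These genes have few UMIs a cell, so a cell without a UMI cannot be called negative. Nrep had 363 UMIs in TUFT, where all tuft-1 genes together had 303 and 201 in replicates 1 and 2. Ninj1 (tuft-1) was lower in TUFT than in PANETH and Irf7 (tuft-2) lower than in GOBLET (pooled ratios of 0.493 and 0.115). Ninj1 had 37 UMIs in TUFT and 137 in PANETH, whose sums held 4782527 and 5155992 UMIs, so its direction rests on the scaling for composition. In thinned cells Ninj1 was not called (edgeR, adjusted p = 0.400), and without TUFT replicate 1 its log2 difference was -0.51. Ninj1 and Irf7 had UMIs in every other class, so a UMI of these lists does not place a cell in either group.

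Outside the lists, 24 genes were named by their distance to the next highest class, with at least 50 CPM in TUFT. Kctd12, an auxiliary subunit of GABA-B receptors at chr14:102976581-102982637 (minus strand), was at 2192 and 1564 CPM, against 383 CPM in NON-EC, a log2 difference of 2.31 ± 0.31 (SE). Kctd12 overlaps the antisense gene Gm26778, and the strand setting of the counting is not given. Reads of these genes cannot be told apart if counting ignored strand. Nebl, a sarcomere-related actin binder, was at 205 and 123 CPM against 1 UMI in NON-EC, a pooled ratio of 157 (95% counting interval 27.9 to 6218). Trib2, a pseudokinase, was at 77.4 and 80.8 CPM against 2 UMIs in PANETH-PRE, a pooled ratio of 111 (95% counting interval 30.1 to 932). Pygl, liver glycogen phosphorylase, was at 303 and 248 CPM against 3 UMIs in NON-EC, a pooled ratio of 85.2 (95% counting interval 28.9 to 415). Galk1, galactokinase, was at 238 and 173 CPM against 32.4 CPM in ISC, a log2 difference of 2.70 ± 0.17 (SE), and Pgm2l1, a sugar phosphate enzyme, at 256 and 212 CPM against 25.2 CPM in NON-EC, a log2 difference of 3.22 ± 0.32 (SE). Adh1, an alcohol dehydrogenase, was at 399 and 406 CPM against 44.5 CPM in NON-EC, a log2 difference of 3.20 ± 0.23 (SE), and Aldh2, an aldehyde dehydrogenase, at 518 and 417 CPM against 75.7 CPM in ENTERO-PRO, a log2 difference of 2.64 ± 0.16 (SE).

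Inpp5j and Inpp5b, inositol phosphatases, were at 131 and 123 CPM and 154 and 115 CPM, with differences of 2.70 ± 0.31 and 2.82 ± 0.52 to the next highest classes. Dgki, a diacylglycerol kinase, was at 119 and 90.4 CPM against 3 UMIs in NON-EC, a pooled ratio of 32.5 (95% counting interval 10.9 to 159.7), and Mcub, a subunit of the mitochondrial calcium uniporter, was at 83.6 and 73.1 CPM against 2.71 CPM in SEC-PRO, a log2 difference of 4.77 ± 0.36 (SE). Skap2, an adaptor of Src kinases, was at 354 and 239 CPM against 51.5 CPM in EEC-PRE, a log2 difference of 2.53 ± 0.27 (SE). Tspan6, a tetraspanin, was at 98.6 and 55.8 CPM against 16.1 CPM in GOBLET, a log2 difference of 2.27 ± 0.67 (SE) and lost its call without TUFT replicate 1 (adjusted p = 0.0646). Ahnak2, Ccdc129, Strip2, Basp1, Nrgn, Rgs22, Rbm38, Snrnp25, Cacna2d2 and Stox2 completed the 24, with TUFT means from 51.2 to 245 CPM.

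Lowest in TUFT were 6 genes (0.0546%), which were below every other class (Golim4, Tmem56, Sh3glb1, Gmds, Ly6e and H2-Q2). The 4 named by the rule are described. Gmds, which makes GDP-fucose, was at 119.8 and 109.6 CPM, and the next lowest class, EEC-PRE, averaged 194 CPM (log2 difference -0.78 ± 0.19, adjusted p = 0.00211). Golim4, a Golgi membrane protein, was at 47.4 and 30.8 CPM, and the next lowest class, ISC, averaged 63.4 CPM (log2 difference -0.67 ± 0.22, adjusted p = 0.0169). Ly6e, a GPI-anchored surface protein, was at 52.4 and 36.5 CPM, and the next lowest class, ISC, averaged 95.2 CPM (log2 difference -1.05 ± 0.20, adjusted p = 1.12e-05). Sh3glb1, a membrane-curving protein, was at 99.8 and 84.6 CPM, and the next lowest class, ISC, averaged 123 CPM (log2 difference -0.43 ± 0.15, adjusted p = 0.0238). Without TUFT replicate 1 the calls of Gmds (adjusted p = 0.103), Golim4 (0.0655) and Sh3glb1 (0.235) were lost, and those of Golim4 and Sh3glb1 were also lost without replicate 2 (0.193 and 0.126). The number below every class was 3 without replicate 1, 3 in thinned cells, 2 without the library term, 30 without the TUFT cells of highest UMI totals and 34 without TUFT cells of over 3% goblet or Paneth marker UMIs.

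Atoh1 and Neurog3, which start secretory and enteroendocrine differentiation, were low in TUFT. Atoh1, the driver of the Cre and of secretory fate, was at 30.0 and 19.2 CPM in TUFT against 178 and 235 CPM in GOBLET. It was lower in TUFT than in SEC-PRO (110.5 and 92.1 CPM, edgeR adjusted p = 3.5e-05), whereas the difference from ISC (15.5 and 20.7 CPM) was 0.37 ± 0.40 (adjusted p = 0.550), and the sums overlapped. Atoh1 UMIs were seen in 7.69% (3.75 to 13.7%) and 2.30% (0.280 to 8.06%) of thinned TUFT cells (brackets give the exact 95% interval), against 28.2% in GP and 23.7% in GOBLET as the highest shares of another class. Neurog3, the enteroendocrine master regulator, had 0 UMIs in TUFT and averaged 827 CPM in EEC-PRE. Lgr5, the stem cell receptor, was at 22.5 and 21.2 CPM, and Mki67, the proliferation marker, was at 52.4 and 86.6 CPM against 647 CPM in SEC-PRO.

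Against ISC, 1697 genes (15.4% of those tested) were higher and 1503 (13.7%) lower in TUFT (3200 in all, 1226 without TUFT replicate 1, 1777 in cells thinned to 2000 UMIs). Of the chemosensory list 11 of 14 genes and of the haematopoietic list 22 of 24 were higher in TUFT, with median log2 differences of 6.22 and 6.34 (5.58 and 6.34 with genes unseen in a class set at 3 counts), beside 0.02 over all genes. The proliferation lists moved the other way. All 25 tested G2/M genes and 24 of 25 tested G1/S genes were lower in TUFT (13 of the G1/S genes without replicate 1). Top2a, the topoisomerase of dividing cells, was at 38.7 and 59.6 CPM in TUFT and 350.2 and 381 CPM in ISC. 64 of 76 ribosomal protein genes were lower, with 35 called without TUFT replicate 1 and 27 without the library term, and their median log2 difference of -0.44 lay below that of all genes at 0.02. Of nuclear oxidative phosphorylation genes, 50 of 81 were lower and 2 higher, with 14 lower without TUFT replicate 1, 19 without the library term and 30 in thinned cells. All 7 MHC class II genes were lower (median -2.19), with 4 without replicate 1. Cd74, the invariant chain, was at 172 and 281 CPM in TUFT and 1334 and 962 CPM in ISC. 10 of 15 cell cycle inhibitors were higher in TUFT, 5 without replicate 1.

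Against SEC-PRO, 1448 genes (13.2% of those tested) were higher and 1507 (13.7%) lower in TUFT (2955 in all, 1353 without TUFT replicate 1, 1708 in cells thinned to 2000 UMIs). Of the chemosensory list 12 of 14 genes and of the haematopoietic list 22 of 24 were higher in TUFT, with median log2 differences of 7.06 and 7.31 (5.84 and 7.31 with genes unseen in a class set at 3 counts), beside 0.01 over all genes. All 25 G2/M genes and 20 of 25 G1/S genes were lower. Of the protein secretion machinery, 30 of 34 translocation and transport genes and 22 of 24 folding and stress response genes were lower, as were 12 of 14 secretory transcription factors. Manf, a folding factor induced by stress in the endoplasmic reticulum, was at 173 and 158 CPM in TUFT and 500.5 and 477 CPM in SEC-PRO. Creb3l4, a transcription factor of secretory cells, was at 26.2 and 42.3 CPM against 76.6 and 76.2 CPM. Of 7 MHC class II genes 4 were lower, 2 in thinned cells and 0 without replicate 1.

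Against ENTERO-PRO, 1710 genes (15.6% of those tested) were higher and 1503 (13.7%) lower in TUFT (3213 in all, 1925 without TUFT replicate 1, 1695 in cells thinned to 2000 UMIs). Of the chemosensory list 11 of 14 genes and of the haematopoietic list 23 of 24 were higher in TUFT, with median log2 differences of 5.92 and 7.96 (4.29 and 4.66 with genes unseen in a class set at 3 counts), beside 0.16 over all genes. Absorptive genes were lower. Brush border and lipid uptake genes were lower in 18 of 20 cases, among them Slc5a1, the sodium-glucose transporter, at 3.74 and 5.77 CPM against 232 and 126 CPM. Of nuclear oxidative phosphorylation genes 60 of 81 were lower, and 12 of 13 mitochondrial genome genes were lower (6 without replicate 1 and 5 without the library term). 16 of 23 glycolysis and citric acid cycle genes were lower, 9 in thinned cells. 6 of 7 MHC class II genes were lower, with Cd74 at 1458 and 1054 CPM in ENTERO-PRO. 23 of 34 translocation and transport genes were lower, 14 without replicate 1 and 14 in thinned cells.

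**Figure D3:**
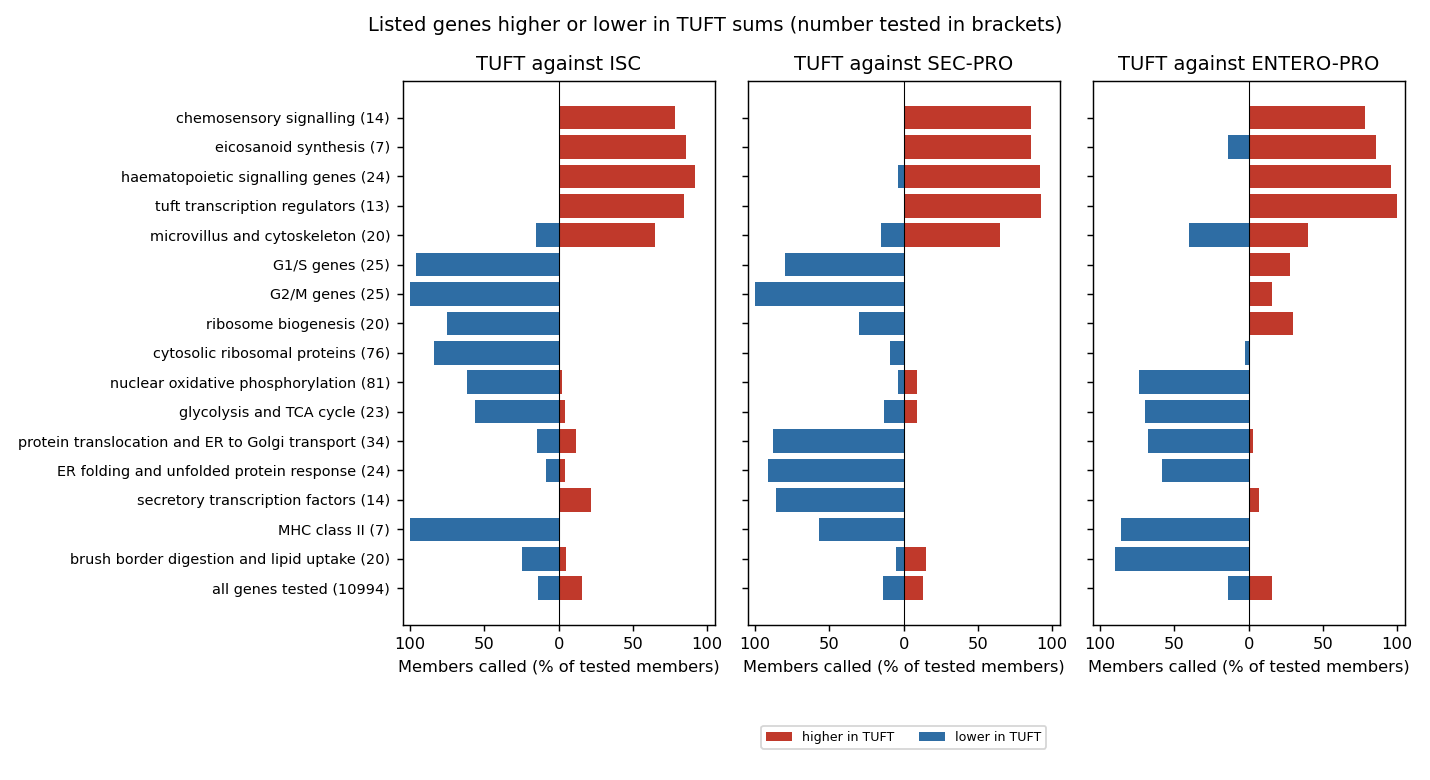
Percentage of tested members of each gene list that were higher (right) or lower (left) in TUFT than in ISC, SEC-PRO and ENTERO-PRO, with the number of tested members in brackets. The haematopoietic, eicosanoid and chemosensory lists reach far to the right and the proliferation lists to the left against ISC and SEC-PRO, beside the bars of all genes tested at the bottom.

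Against the goblet lineage the secretory machinery was again lower. Against GP, 1992 genes (18.1% of those tested) were higher and 1190 (10.8%) lower in TUFT (3182 in all, 1698 without TUFT replicate 1, 1892 in cells thinned to 2000 UMIs), and against GOBLET-PRE, 2625 genes (23.9% of those tested) were higher and 1520 (13.8%) lower in TUFT (4145 in all, 2458 without TUFT replicate 1, 2496 in cells thinned to 2000 UMIs). Translocation and transport genes were lower in 32 of 34 cases against GP and 32 of 34 against GOBLET-PRE, and all 7 goblet markers were lower against each (3 against GP without TUFT replicate 1). G2/M genes were higher, 13 of 25 against GP and 21 against GOBLET-PRE. Without the TUFT cells with 3 or more G2/M genes these counts were 1 and 1. Those cells were chosen by the same 25 genes and left out of TUFT alone, so that fall follows from the choice. In thinned cells the counts were 2 and 9. They were 5 and 12 without TUFT replicate 2, and 2 and 7 without the TUFT cells of highest UMI totals. Immediate-early genes were lower, 8 of 18 against GP (1 without replicate 2 and 4 without replicate 1 or without the library term) and 14 of 18 against GOBLET-PRE. Against GOBLET, 1079 genes (9.81% of those tested) were higher and 1356 (12.3%) lower in TUFT (2435 in all, 2066 without TUFT replicate 1, 1693 in cells thinned to 2000 UMIs). 74 of 76 ribosomal protein genes were higher in TUFT than in GOBLET, and all 7 goblet markers were lower.

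Against the Paneth lineage, 1794 genes (16.3% of those tested) were higher and 1370 (12.5%) lower in TUFT (3164 in all, 1917 without TUFT replicate 1, 1780 in cells thinned to 2000 UMIs) for PANETH-PRE, and 1752 genes (15.9% of those tested) were higher and 1628 (14.8%) lower in TUFT (3380 in all, 2138 without TUFT replicate 1, 1411 in cells thinned to 2000 UMIs) for PANETH. PANETH cells were deeper, with medians of 23375 and 12874 UMIs. All 8 Paneth markers were lower against each, with medians of -4.61 and -7.72 on the log2 scale. Folding and stress response genes were lower in 24 of 24 cases against PANETH-PRE and 22 of 24 against PANETH. Before scaling for composition they summed to 5660 and 5588 CPM in TUFT, 10135 and 9848 in PANETH-PRE and 2484 and 2428 in PANETH. Their direction against PANETH therefore rests on the scaling, with factors of 0.229 and 0.256 in PANETH and 1.32 and 1.33 in TUFT. Of nuclear oxidative phosphorylation genes 46 and 38 of 81 were higher (26 and 20 without the library term). Of 13 mitochondrial genome genes 2 were higher and 0 lower against PANETH-PRE, and 0 were higher and 8 lower against PANETH (median -0.41; 5 lower without TUFT replicate 1 and 4 without the library term). Before scaling for composition these 13 genes summed to 46985 and 45165 CPM in TUFT and 11225 and 10559 CPM in PANETH, so this direction rests on the scaling. Ssr4, part of the translocon-associated complex, was at 267 and 231 CPM in TUFT and 1277 and 1056 CPM in PANETH. Ssr4 had 334 UMIs in TUFT (sums of 608473 and 392983 UMIs) and 2790 in PANETH (sums of 4782527 and 5155992 UMIs). Its direction also rests on the scaling.

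The 3 enteroendocrine classes gave the fewest calls. EEC-PRE, EC and NON-EC held 130, 125 and 215 cells, while GOBLET, with 126 cells, gave 2435 calls. The part of cell number in these counts was not tested. Against EEC-PRE, 595 genes (5.41% of those tested) were higher and 756 (6.88%) lower in TUFT (1351 in all, 872 without TUFT replicate 1, 834 in cells thinned to 2000 UMIs). Against EC, 509 genes (4.63% of those tested) were higher and 1081 (9.83%) lower in TUFT (1590 in all, 1169 without TUFT replicate 1, 1010 in cells thinned to 2000 UMIs), and against NON-EC, 610 genes (5.55% of those tested) were higher and 1383 (12.6%) lower in TUFT (1993 in all, 1316 without TUFT replicate 1, 1217 in cells thinned to 2000 UMIs). Enteroendocrine markers were lower in 4 of 10 cases against EEC-PRE, 7 of 10 against EC and 9 of 10 against NON-EC. 20, 21 and 21 of 24 haematopoietic signalling genes were higher in TUFT than in EEC-PRE, EC and NON-EC. Ribosomal protein genes were lower in 58 of 76 cases against EEC-PRE, with 29 without replicate 1, 23 without the library term and 19 with factors from all genes. Cell cycle inhibitors were lower in 7 of 15 cases against NON-EC (4 without TUFT replicate 1, 4 without replicate 2 and 3 with factors from all genes). Cdkn1a, the inhibitor p21, was at 168 and 100 CPM in TUFT and 1148 and 929 CPM in NON-EC.

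TUFT cells were not uniform. Each cell's share of UMIs from the 140 genes above every class had a median of 5.15% (1.02 to 8.42%) in replicate 1 and 3.81% (0.986 to 9.10%) in replicate 2. These genes were chosen on the same cells, so the values are a description. 27 of 161 cells and 30 of 143 were under 2%. In the 15 and 22 cells with 3 or more G2/M genes the median was 1.69% and 2.05%. They were deeper than TUFT cells as a whole, with median UMIs of 6432 and 3934. In the 21 and 18 cells with over 3% of UMIs from goblet markers the median share was 1.69% and 1.87% (median UMIs 5914 and 3972), and in the 10 and 9 cells with over 3% from Paneth markers 4.94% and 3.68% (median UMIs 1256 and 1654), nearer to that of all TUFT cells. In the 121 and 98 cells in none of these sets, with median UMIs of 3348 and 2058, it was 5.55% and 4.69%. Cells of 2 types caught in 1 droplet can carry markers of both, and no doublet caller was run, so their part in this was not tested.

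**Figure D4:**
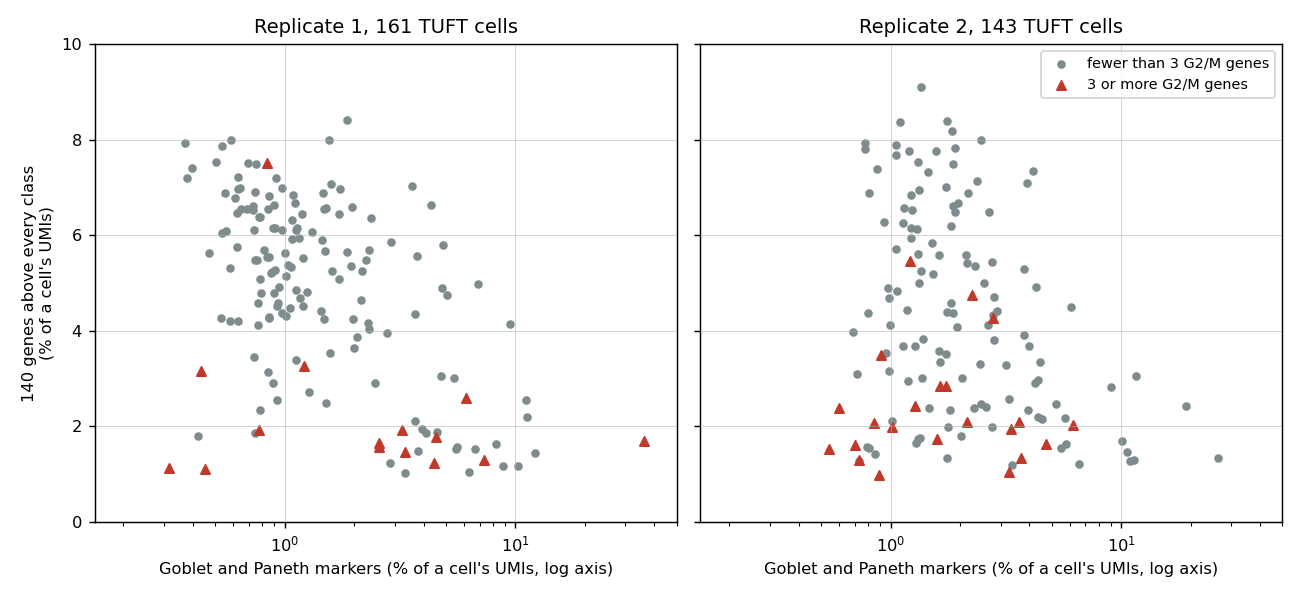
Each point is a TUFT cell, with its share of UMIs from goblet and Paneth markers (log axis) against its share from the 140 genes above every other class, and triangles mark cells with 3 or more G2/M genes. Most triangles lie low on the vertical axis in both replicates, and points to the right spread over low and high values.

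After thinning each cell to 2000 UMIs, which left out 31 and 56 shallower cells, 4.62% and 10.3% of TUFT cells had 3 or more G2/M genes, compared with 47.6% and 48.6% in ISC and 5.38% and 2.63% in ENTERO-PRO. Unthinned, these shares were 9.32% and 15.4%, 68.9% and 60.7%, and 9.32% and 11.2%. Dclk1 UMIs were seen in 74.6% (66.2 to 81.8%) and 59.8% (48.7 to 70.1%) of thinned TUFT cells (85.7% and 67.8% unthinned), and the highest share in another class was 1.55% in ISC and 2.56% in NON-EC. Lrmp was seen in 86.2% (79.0 to 91.6%) and 74.7% (64.3 to 83.4%) (94.4% and 85.3% unthinned), and Trpm5 in 49.2% (40.4 to 58.1%) and 34.5% (24.6 to 45.4%) (65.2% and 48.3% unthinned). Lrmp and Dclk1 were each seen in most TUFT cells, and the highest share of Lrmp in another class was 2.44% in GOBLET and 2.56% in NON-EC, that of Trpm5 2.15% in ENTERO-PRO and 0.386% in ISC. Kctd12 was seen in 89.2% (82.6 to 94.0%) and 87.4% (78.5 to 93.5%) (92.5% and 88.8% unthinned), with 68.1% in NON-EC and 59.0% in NON-EC, so it did not mark TUFT alone. Rgs13 was seen in 86.2% (79.0 to 91.6%) and 54.0% (43.0 to 64.8%) (90.7% and 68.5% unthinned), where the intervals of the libraries did not overlap.

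**Figure D5:**
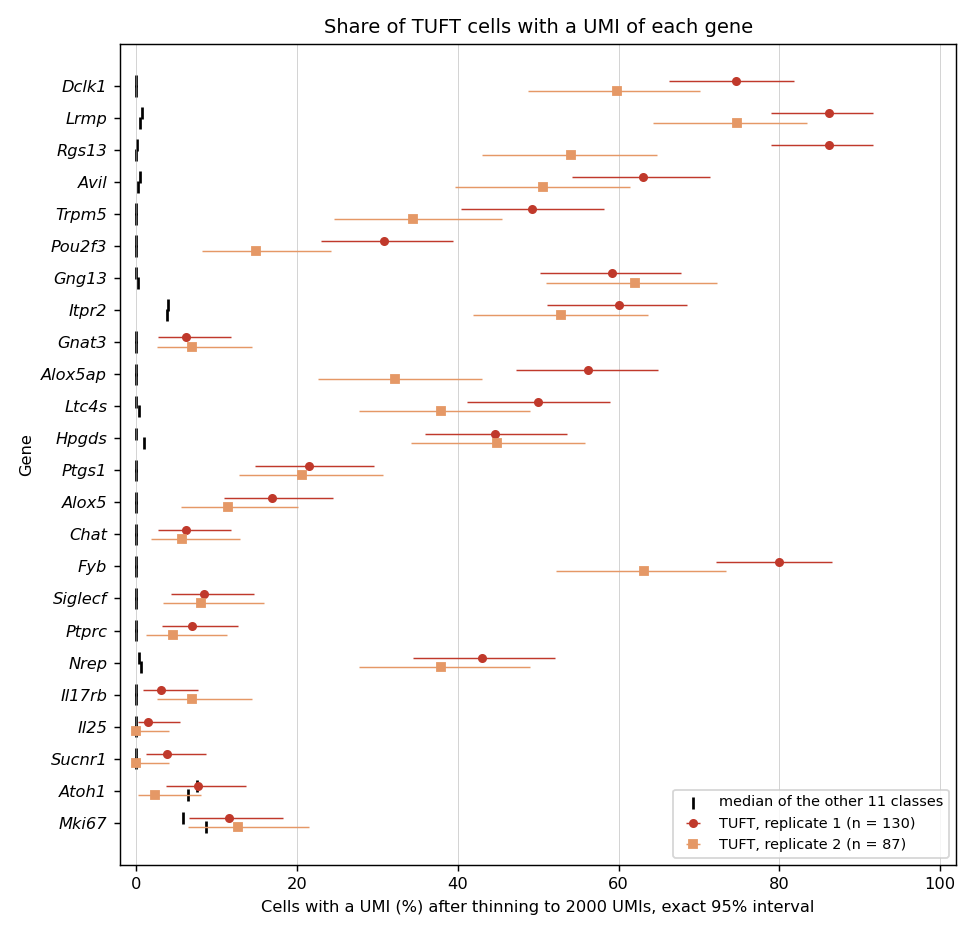
Share of TUFT cells with at least 1 UMI of each gene after thinning to 2000 UMIs, in percent, with exact 95% intervals for each replicate and black ticks for the median of the other 11 classes. Lrmp, Rgs13 and Fyb lie farthest to the right in replicate 1, and Rgs13 differs most between the replicates.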

How the data were processed

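The authors deposited raw UMI count matrices of every barcode for 2 libraries and 1 table of 11562 cells with each cell's class and its percent of mitochondrial reads. Per the file headers and the submitters' processing notes, the deposited counts come from Cell Ranger 3.0.2 with STAR on mm10. Cell filters, doublet removal and class assignment by the authors are not given in the sources used here, and the authors' percent values were used only to check that listed cells had under 7% mitochondrial reads. Barcodes were matched by library name, and 77.6% and 73.9% of listed UMI totals equalled those of the matrices, with differences of at most 11 and 25. No doublet caller was run, and free RNA was measured in barcodes with at most 50 UMIs.

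Counts were summed per class and library (24 sums) and tested with edgeR 4.0.16 (quasi-likelihood, robust, R 4.3.3) with class and library terms and TMM factors from 2079 genes of average log2 CPM of at least 6. 10994 genes passed the low count filter, residual degrees of freedom were 11, and the threshold was a Benjamini-Hochberg adjusted p of 0.05 per contrast. TUFT was compared with each of 11 classes. A gene was above every class where it passed in all. These comparisons share the TUFT sums, so no overlap between them is given. A library is a block because all its classes came from the same sorted cells, and differences between the libraries correlated between TUFT and the other classes (median r 0.319, range 0.103 to 0.419, over 3827 genes). Genes were named by rule: markers, all members of the tuft lists, the 24 furthest above the next class with at least 50 CPM, the 12 furthest below every class with at least 50 CPM in each other class (4 qualified), and up to 3 members of each other list. Some of these genes are not reported here. The members and lists were chosen with earlier results of these data known. A fold to a class with 1 to 3 UMIs is a ratio of pooled counts with its counting interval. Shares used cells thinned to 2000 UMIs. Intervals were exact (Clopper-Pearson). Alternatives were DESeq2 1.42.0, other size factors, no filter, no library term, thinning, cell subsets and leaving out the TUFT sum of a library. Coordinates are GENCODE M21 (GRCm38), and 78 of 252 genes looked up overlap an exon on the opposite strand, so reads of such pairs cannot be told apart where counting ignored strand.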

Additional observations from a re-analysis of the deposited data

Results flagged for a closer look

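Barcodes outside the authors' cell table also carried tuft markers. In replicate 1, 186 of 3325 unlisted barcodes with at least 875 UMIs (5.59%) had 3 or more of the 6 tuft markers, compared with 143 of 5305 listed cells (2.70%). In replicate 2, with at least 939 UMIs, it was 43 of 1674 (2.57%) and 101 of 6257 (1.61%). These barcodes enter no comparison of the report, and all listed cells had under 3000 genes and under 7% mitochondrial reads. Of the 186, 38 had 3000 or more genes and 148 had 7% or more mitochondrial UMIs, and 1 was within both limits and the gene range of listed cells. Of the 43, the numbers were 8, 34 and 0. Their median UMIs were 1849 and 1596.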

How the results depend on the processing

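In cells thinned to 2000 UMIs the calls numbered 1777 against ISC, 1708 against SEC-PRO, 1892 against GP, 2496 against GOBLET-PRE, 1780 against PANETH-PRE, 1411 against PANETH, 834 against EEC-PRE, 1010 against EC, 1217 against NON-EC, 1695 against ENTERO-PRO, and 3 below every class, where fewer UMIs were counted. Leaving out a TUFT sum gave ranges of 1226 to 2752 calls against ISC, 1353 to 2449 calls against SEC-PRO, 1698 to 2533 calls against GP, 2458 to 3318 calls against GOBLET-PRE, 2066 to 2216 calls against GOBLET, 1917 to 2627 calls against PANETH-PRE, 2138 to 2857 calls against PANETH, 872 to 1159 calls against EEC-PRE, 1169 to 1285 calls against EC, 1316 to 1562 calls against NON-EC, 1925 to 2691 calls against ENTERO-PRO, of 100 to 146 genes above and 3 to 6 below every class. The number below every class was 2 with no replicate block (no library term). The number below every class was 30 without the TUFT cells of highest UMI totals. The number below every class was 34 without TUFT cells of over 3% goblet or Paneth marker UMIs. Without the replicate block, 121 genes were above every class, 121 of the 140 among them, and no other count against a class moved by over 1.5 times. The 2 subsets of TUFT cells by marker UMIs and by G2/M genes were chosen after seeing the data. Of the 140 genes, 97 were kept in thinned cells, 98 without replicate 1, 117 by DESeq2's Wald test and 137 with factors from all genes. Those factors moved the median log2 difference to ISC over all genes from 0.02 to -0.10. Of 159 named genes called against their comparison class, 124 kept the call in each of the 11 alternatives that tested them, and 0 reversed. Some named genes did not pass the low count filter in thinned cells and were not tested there. The Wald test lost 12 of them, with estimated dispersions of 3.38 to 24, and kept 147, with dispersions of at most 0.682, where the fitted trend for the lost genes was 0.0318 to 0.334. With 2 libraries, depth and the share of TUFT cells limit what low genes can show.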

Other observations

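4 genes outside the lists that were above every class were chosen here after their values were seen. Kit, the stem cell factor receptor, was at 366 and 577 CPM in TUFT and 229.6 and 283 CPM in EEC-PRE, the next highest class. Myb, a transcription factor of progenitors, was at 195 and 169 CPM against 148 and 137 CPM in ISC. Dsp, which encodes the junction protein desmoplakin, was at 734 and 569 CPM against 376 and 377 CPM in GOBLET. For these genes both TUFT sums were above every other sum. Mgst3, a microsomal glutathione transferase, was at 1222 and 396 CPM in TUFT and 712 and 322 CPM in GOBLET, where the sums of the classes overlap and replicate 1 is the higher in each. Fabp1, a fatty acid binding protein of enterocytes, was not above every class, at 52.4 and 150.0 CPM in TUFT, 150.2 and 160.0 CPM in ENTERO-PRO and 0.509 and 3.84 CPM in ISC. Its TUFT and ENTERO-PRO levels were not called different (edgeR, adjusted p = 0.131), while lower TUFT levels were called in thinned cells (adjusted p = 0.00662) and without a filter on low counts (0.00502).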
